A study of Mus musculus with 51 samples.

Results

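Early DMRT1-dependent Sertoli genes are described here through 9 genes, *Islr2*, *Clec12b*, *Tbc1d30*, *Sh3gl2*, *Tox*, *Rarres1*, *Elovl2*, *Etd* and *Aard*, picked by name from the 55401 genes of the count table because their mRNA was lower in P7 Sertoli cells that had lost *Dmrt1*. The P7 values therefore describe the choice and carry no test. The P3 and P28 libraries were not part of the rule and are tested. RNA was sequenced in 30 libraries, 3 in each of 10 groups, all from XY mice of a mixed 129Sv and C57Bl/6J background. At P7 (postnatal day 7) the groups were Sertoli cells of Dmrt1 f/f mice and Sertoli cells of Dmrt1 f/+ mice, both with the CAG-Stopflox-tdTomato reporter and Dhh-Cre, a Cre that acts in Sertoli cells, so that the control cells also carry 1 floxed allele and the Cre; their titles name them +/+. At P3 whole gonads were Dmrt1 -/- (null), Dmrt1 R111G/-, Dmrt1 R111G/+ or Dmrt1 +/- (heterozygous). At P28 they were null, R111G/+, heterozygous or Dmrt1 +/+ (wild-type). R111G is a point mutation in the DNA-binding domain, made by CRISPR and kept as a line from 1 founder, and P7 cells were pooled from more than 1 mouse a tube and enriched with beads that remove germ cells.

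Sertoli cells are the supporting cells of the testis: they nurse the germ cells, seal the tubule with tight junctions and send the hormones that shape male development. DMRT1 is a DM-domain transcription factor that Sertoli and germ cells share, and mouse Sertoli cells that lose it after birth take on features of granulosa cells, the supporting cells of the ovary. Among the genes described here, *Islr2* and *Clec12b* encode surface proteins, *Tbc1d30* and *Sh3gl2* act in membrane traffic, *Tox* encodes a nuclear protein, *Rarres1* is named for its response to retinoic acid, *Elovl2* encodes a lipid enzyme, and *Etd* and *Aard* encode gonadal proteins of little known function.

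Library totals ran between 5043838 and 12792811 counts with a median of 8776697, and levels are CPM, counts scaled to library size with TMM factors (trimmed mean of M values) over all 30 libraries. *Dmrt1* itself stood at 24.7, 36.8 and 21.2 CPM in P7 null cells, against 175, 168 and 259 CPM in P7 control cells. It averaged 2.79 ± 0.611 CPM in P3 null and 68.0 ± 14.2 CPM in P3 heterozygous gonads, and 0.353 ± 0.159 CPM in P28 null and 44.2 ± 16.2 CPM in P28 heterozygous testes (SD, n = 3 each). A count over all exons cannot tell the deleted part from what is left. Replicates are 3 libraries a group, and p-values measure the spread between them. In the isolated P7 cells all 28 Sertoli markers listed had counts in the controls and 27 in the null cells (*Rhox5* was at 0 there). Of the 26 that were tested 6 fell, and the summed levels were 7253 to 9073 CPM in null cells and 8258 to 9287 CPM in control cells. Marker sums of other cell types were 1347 to 2176 CPM in null and 564 to 1052 CPM in control cells for 16 granulosa markers (*Cyp19a1* was at 0 in null cells) and 265 to 603 CPM in null and 424 to 689 CPM in control cells for 14 germ cell markers. The 9 macrophage markers summed to 6.34 to 7.27 CPM in null cells (*Cd163* and *Fcgr1* at 0) and 6.18 to 10.1 CPM in control cells (*Adgre1*, *C1qa* and *Fcgr1* at 0). The 6 endothelial markers summed to 28.003 to 46.3 CPM in null cells and 11.5 to 14.2 CPM in control cells, and the 6 neuronal markers to 79.2 to 95.7 CPM in null cells (*Rbfox3* at 0) and 116 to 140.2 CPM in control cells (*Stmn2* at 0), without overlap in either list. The part of these cells in the P7 values was not tested.

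In P7 Sertoli cells every one of the 9 genes was lower in each null library than in each control library, in the comparison they were chosen from. Of all 14013 genes tested there, 13.4% were lower without overlap. *Islr2* (chr9:58196297-58204319, minus strand of GRCm38, as are all positions here) encodes a leucine-rich-repeat membrane protein with an immunoglobulin domain that guides axons. It had 0.438, 0.569 and 0.393 CPM in null cells, against 43.9, 85.9 and 112 CPM in control cells. *Clec12b* (chr6:129375515-129385874, minus strand), an inhibitory C-type lectin-like receptor of immune cells, had 0.109, 1.33 and 1.97 CPM in null cells, against 92.6, 61.1 and 136 CPM in control cells. Both were nearly silent in null cells. Macrophage markers were at most 10.1 CPM summed over the whole list in either group, and the part of immune cells in the *Clec12b* values was not tested. *Tbc1d30* (chr10:121263820-121351278, minus strand) encodes a TBC-domain protein, the kind that switches off Rab GTPases of vesicle traffic. It had 0.328, 0.759 and 0.983 CPM in null cells, against 44.4, 32.1 and 52.9 CPM in control cells. *Sh3gl2* (chr4:85205126-85639195, plus strand), which encodes endophilin A1, a protein that bends membranes during endocytosis, had 6.67, 11.95 and 10.6 CPM in null cells, against 146, 134 and 139 CPM in control cells. *Sh3gl2* varied little among the control libraries, while *Tbc1d30* control libraries spread more.

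*Tox* (chr4:6686353-6991557, minus strand) encodes an HMG-box protein of the nucleus best known from T cells. It had 0.328, 0.948 and 0.197 CPM in null cells, against 25.8, 22.7 and 36.3 CPM in control cells. The 8 T and NK cell markers summed to 0.766 to 1.14 CPM in null and 0.553 to 1.21 CPM in control cells. The part of such cells in the *Tox* values was not tested. *Rarres1* (chr3:67478972-67515523, minus strand), a membrane protein related to the carboxypeptidase inhibitor latexin, had 2.73, 3.03 and 1.38 CPM in null cells, against 69.4, 61.4 and 50.8 CPM in control cells. *Elovl2* (chr13:41182381-41220405, minus strand) encodes the elongase that lengthens polyunsaturated fatty acids, which the testis uses for the very long chains of sperm lipids. It had 75.1, 89.7 and 87.3 CPM in null cells, against 603, 414 and 629 CPM in control cells, so that a sizeable level was left without *Dmrt1*. *Etd* (chrX:53434918-53443576, plus strand), named for embryonic testis differentiation, had 0.109, 0.190 and 0 CPM in null cells, against 36.9, 15.3 and 30.3 CPM in control cells. Its null libraries held 2 counts in all, against 624 in the controls, which after scaling for library size is a ratio of 0.00355 with a 95% counting interval from 4.29e-04 to 0.0129 that covers counting error only. *Aard* (chr15:52040107-52045722, plus strand), which encodes a protein rich in alanine and arginine, had 513, 478 and 504 CPM in null cells, against 1738, 1636 and 1462 CPM in control cells, and kept the highest level of the 9 genes without *Dmrt1*.

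In the P7 comparison the log2 fold changes of null over control cells ranged from -7.85 for *Etd*, -7.41 for *Islr2* and -6.61 for *Clec12b*, through -6.06 for *Tbc1d30*, -5.87 for *Tox*, -4.64 for *Rarres1* and -3.86 for *Sh3gl2*, to -2.71 for *Elovl2* and -1.70 for *Aard*. Among 14013 genes tested at P7, called at an adjusted p below 0.05 and a change over 2-fold, 2% were lower and 2.56% were higher in null cells. By fold change the 9 genes held ranks between 4 and 224 counted from the lowest. Per exon length, as FPKM, which divides the scaled counts by the length of the exons, the control cells expressed *Aard* most, at 1196 ± 104 FPKM, followed by *Elovl2* at 138 ± 29.5 FPKM (SD, n = 3 each). *Clec12b* at 59.7 ± 23.4 FPKM, *Etd* at 57.5 ± 23.2 FPKM and *Rarres1* at 45.7 ± 7.04 FPKM overlapped in their control libraries and cannot be ordered. *Sh3gl2* followed at 21.3 ± 0.891 FPKM, above *Islr2* at 13.6 ± 5.83 FPKM, *Tbc1d30* at 6.41 ± 1.55 FPKM and *Tox* at 3.72 ± 0.939 FPKM. The lowest *Islr2* control library overlapped the *Tbc1d30* range, and the *Tox* and *Tbc1d30* ranges met only at their edges.

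**Figure D1:**
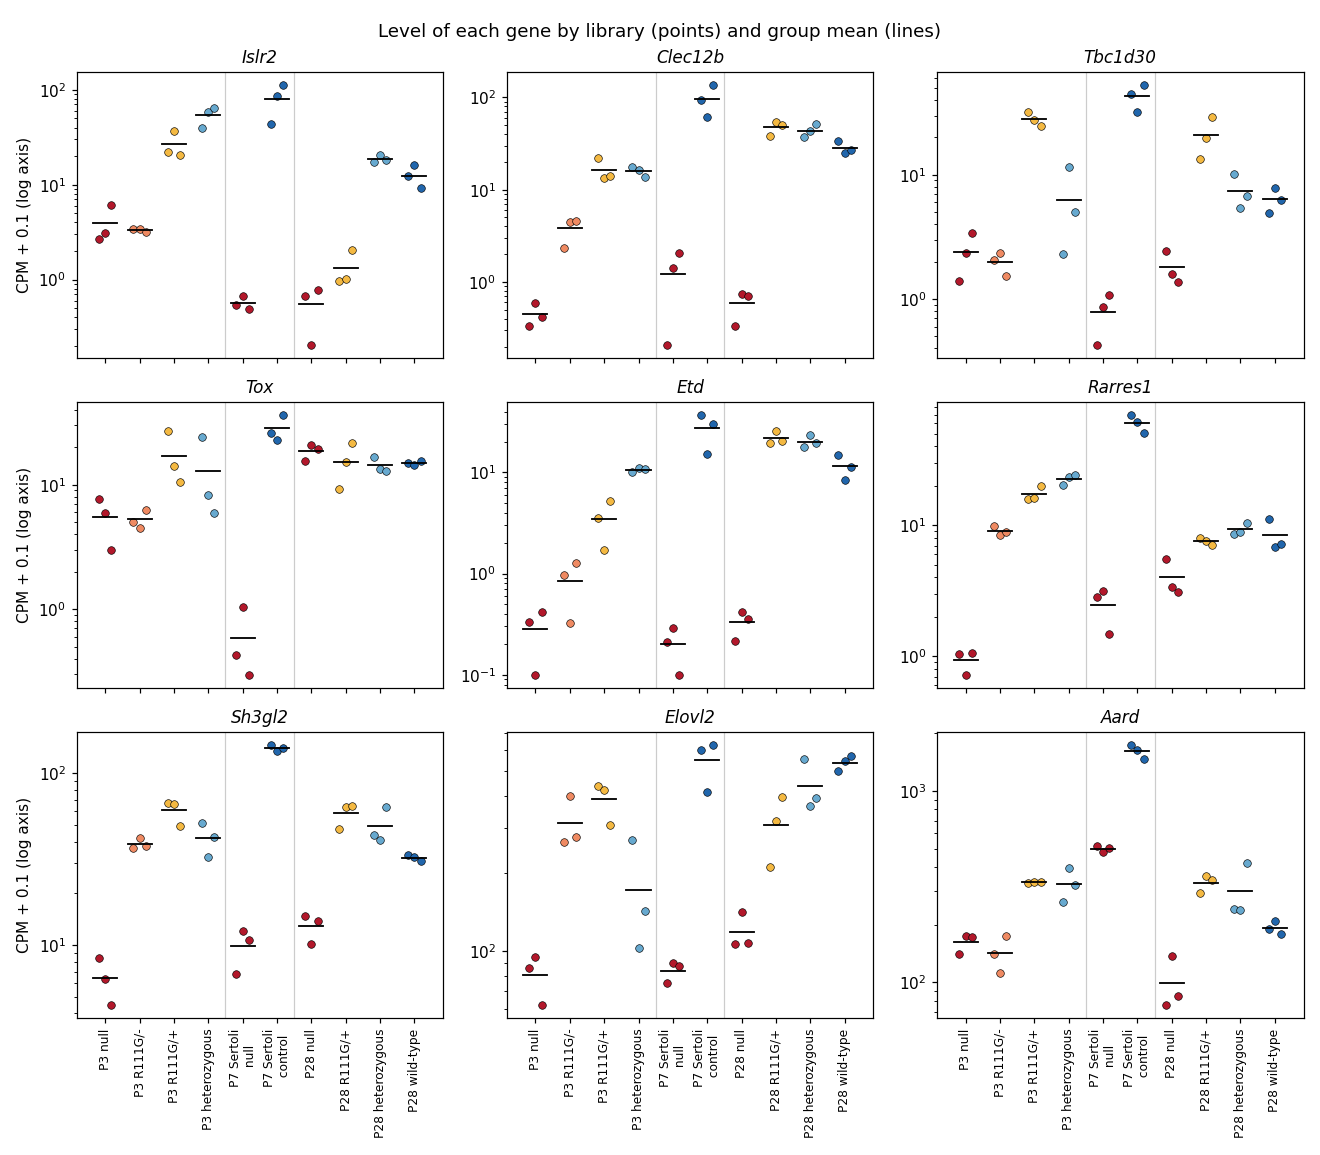
Level of each of the 9 genes in all 30 libraries, as CPM plus 0.1 on a log axis, with 1 panel per gene, 1 point per library, a line at each group mean, and the P3, P7 and P28 groups from left to right. In P7 null cells every gene lies below every control library, while *Tox* at P28 averages between 14.3 and 18.5 CPM in the groups with and without *Dmrt1*.

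RefSeq promoter sequences (250 bases before to 50 after a start site, build GRCm38.p6) were at hand for 6 of the 9 genes, *Islr2*, *Clec12b*, *Etd*, *Rarres1*, *Sh3gl2* and *Elovl2*. The pairs whose levels ran most alike over the libraries, including the P7 ones of the choice, *Clec12b* with *Etd* and *Rarres1* with *Sh3gl2*, are shown 5′ to 3′. Capitals mark ACAAAG or ACAATG, on either strand, the kind of sequence that SOX proteins bind. The windows are chr6:129385454-129385753 (minus strand) for *Clec12b*, chrX:53434668-53434967 (plus strand) for *Etd*, chr3:67515474-67515773 (minus strand) for *Rarres1* and chr4:85205206-85205505 (plus strand) for *Sh3gl2*.
*Clec12b*: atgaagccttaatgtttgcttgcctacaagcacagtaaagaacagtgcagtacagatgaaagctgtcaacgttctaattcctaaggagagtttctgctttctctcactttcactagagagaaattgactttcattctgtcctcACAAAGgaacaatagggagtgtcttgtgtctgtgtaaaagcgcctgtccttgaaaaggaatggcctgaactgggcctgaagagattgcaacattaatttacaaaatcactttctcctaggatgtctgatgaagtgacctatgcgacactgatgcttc
*Etd*: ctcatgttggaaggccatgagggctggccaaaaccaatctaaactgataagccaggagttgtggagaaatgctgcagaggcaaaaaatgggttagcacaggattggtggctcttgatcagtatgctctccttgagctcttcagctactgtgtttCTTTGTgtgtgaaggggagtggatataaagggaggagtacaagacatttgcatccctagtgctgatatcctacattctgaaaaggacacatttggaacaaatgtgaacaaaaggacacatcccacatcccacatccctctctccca
*Rarres1*: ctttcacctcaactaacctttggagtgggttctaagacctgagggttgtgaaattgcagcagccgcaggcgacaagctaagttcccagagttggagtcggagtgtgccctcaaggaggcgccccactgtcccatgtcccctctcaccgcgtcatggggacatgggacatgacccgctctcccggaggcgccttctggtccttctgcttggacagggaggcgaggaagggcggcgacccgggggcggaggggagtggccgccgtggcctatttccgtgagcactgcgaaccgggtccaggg
*Sh3gl2*: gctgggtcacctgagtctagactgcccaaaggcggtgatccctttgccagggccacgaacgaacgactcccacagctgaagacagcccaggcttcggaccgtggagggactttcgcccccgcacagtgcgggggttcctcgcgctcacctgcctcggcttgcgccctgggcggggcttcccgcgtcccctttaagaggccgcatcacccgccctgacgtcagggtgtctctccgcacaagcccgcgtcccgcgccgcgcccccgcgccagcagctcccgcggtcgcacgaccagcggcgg
The SOX-type letters occurred in 3 of the 6 genes, 107 bases before the start of *Clec12b*, 96 before that of *Etd* (on the other strand) and 2 before 1 of the 2 starts of *Elovl2*, against 31.7% of all 27025 genes with a promoter in the table. ACANTGT, the centre of the DNA sequence that DMRT1 binds, was searched on both strands, could overlap the first motif, and was in 0 of the 6, against 8.62% of all genes. The base composition differed between the pairs, with 41.7% G and C in the *Clec12b* and 46% in the *Etd* window, against 63.3% in that of *Rarres1* and 70.7% in that of *Sh3gl2*, and a median of 52.7% over all 32851 promoters. Levels also ran alike across the pairs, with Pearson correlations of log2 CPM from 0.735 (*Etd* and *Rarres1*) to 0.901 (*Clec12b* and *Sh3gl2*). Within the pairs they were 0.943 and 0.909, and a link to base composition was not tested.

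At P3, in whole gonads, 6 of the 9 genes fell in null against heterozygous gonads (edgeR's quasi-likelihood test, adjusted p below 0.05 with Benjamini-Hochberg correction over all 15837 genes tested, and over 2-fold), while 0.309% of all genes did. The median log2 fold change was -2.73 over the 9 genes and -0.0049 over all genes. *Etd* had 0.235, 0 and 0.321 CPM in null gonads, against 10.1, 10.9 and 10.7 CPM in heterozygous gonads (log2 fold change -5.67, SE 0.63, adjusted p = 6.66e-04). *Clec12b* had 0.235, 0.499 and 0.321 CPM in null gonads, against 17.4, 16.2 and 13.6 CPM in heterozygous gonads (log2 fold change -5.43, SE 0.38, adjusted p = 9.72e-06). *Rarres1* had 0.940, 0.624 and 0.963 CPM in null gonads, against 20.0, 23.4 and 24.3 CPM in heterozygous gonads (log2 fold change -4.71, SE 0.22, adjusted p = 1.80e-07). These genes were close to silent in null gonads at P3, with no overlap between the groups. In this comparison 6.65% of all genes were lower without overlap. *Islr2* had 2.58, 2.99 and 5.99 CPM in null gonads, against 39.1, 57.9 and 64.1 CPM in heterozygous gonads (log2 fold change -3.77, SE 0.32, adjusted p = 5.42e-05). *Sh3gl2* had 8.34, 6.24 and 4.39 CPM in null gonads, against 51.1, 32.4 and 42.6 CPM in heterozygous gonads (log2 fold change -2.73, SE 0.22, adjusted p = 4.47e-05). *Aard* had 141, 175 and 172 CPM in null gonads, against 264, 395 and 321 CPM in heterozygous gonads, without overlap (log2 fold change -1.004, SE 0.17, adjusted p = 0.0117). The *Aard* change lies at the 2-fold limit, and without heterozygous replicate 2 or null replicate 1 it was not called, at -0.85 and -0.91, nor on a scale set by supporting lineage genes, at -1.17.

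For the other 3 genes 1 heterozygous library stood apart. *Elovl2* had 86.2, 94.7 and 62.0 CPM in null gonads, against 269, 103 and 144 CPM in heterozygous gonads (log2 fold change -1.08, SE 0.30, adjusted p = 0.157), with all null libraries below all heterozygous ones. *Tox* had 7.52, 5.86 and 2.89 CPM in null gonads, against 24.2, 8.16 and 5.80 CPM in heterozygous gonads (log2 fold change -1.23, SE 0.51, adjusted p = 0.475). *Tbc1d30* had 1.29, 2.25 and 3.32 CPM in null gonads, against 2.19, 11.4 and 4.88 CPM in heterozygous gonads (log2 fold change -1.40, SE 0.48, adjusted p = 0.332). Heterozygous replicate 1 was the highest of its group for *Tox* and *Elovl2* and replicate 2 the highest for *Tbc1d30*, and the groups of *Tox* and *Tbc1d30* overlapped. *Elovl2* was called without heterozygous replicate 2, at -1.35, and on the supporting lineage scale, at -1.12. With no filter on low counts *Elovl2* (-1.09), *Tbc1d30* (-1.40) and *Tox* (-1.24) were all called, which made 9 of 9, where 175 of all 32868 genes were lower. In these whole gonads fewer cells of a type and less RNA per cell cannot be told apart. Of 27 Sertoli markers tested, 5 fell and none of the 14 granulosa, 7 Leydig, 6 endothelial or 8 macrophage markers was called. All 28 Sertoli markers listed summed to 6581 to 6809 CPM in null and 4780 to 7880 CPM in heterozygous gonads. The 10 supporting lineage genes, of which 1 fell, summed to 4068 to 4360 CPM in null and 2536 to 4136 CPM in heterozygous gonads. Germ cell markers, of which 1 of 10 fell, summed to 152 to 309 CPM in null and 214 to 604 CPM in heterozygous gonads, and 1 of 5 peritubular myoid markers fell, with sums of 215 to 307 CPM in null and 291 to 789 CPM in heterozygous gonads. Their part in the change of the 9 genes was not tested.

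The R111G allele was tested at P3 without a normal allele (R111G/-) and beside one (R111G/+), against the same heterozygous libraries as the null gonads. *Dmrt1* mRNA stood at 92.6% ± 15.5 of the heterozygous mean in R111G/- and 188% ± 29.8 in R111G/+ gonads (SD, n = 3 each). In R111G/- gonads 5 of the 9 genes fell, against 0.158% of all genes. *Islr2* had 3.33, 3.28 and 3.10 CPM in R111G/- gonads (log2 fold change -4.04, SE 0.33, adjusted p = 1.99e-04), that is 6.03% ± 0.227 of the heterozygous mean, beside 7.19% ± 3.47 in null gonads. *Etd* had 0.864, 0.226 and 1.16 CPM in R111G/- gonads (log2 fold change -3.81, SE 0.52, adjusted p = 0.00474), and *Aard* had 141, 112 and 174 CPM (log2 fold change -1.19, SE 0.17, adjusted p = 0.00548). For these genes the R111G/- and null libraries overlapped, and for *Etd* they held 0 to 9 counts each. The difference of R111G/- from null gonads was -0.26 ± 0.38 for *Islr2*, 1.86 ± 0.81 for *Etd* and -0.19 ± 0.17 for *Aard* (log2 fold change ± SE), none of them past the threshold, which does not show that the alleles act alike. *Aard* was not called against heterozygous gonads in a fit of these groups alone, at -1.19, or on the supporting lineage scale, at -1.12.

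Other genes stood higher in R111G/- than in null gonads, 4 of the 9, against 0.12% of all genes. *Clec12b* had 2.22, 4.41 and 4.52 CPM in R111G/- gonads, below heterozygous gonads (log2 fold change -2.07, SE 0.28, adjusted p = 0.00427) and above null gonads (log2 fold change 3.37, SE 0.42, adjusted p = 0.00501). *Rarres1* had 9.75, 8.26 and 8.79 CPM in R111G/- gonads, likewise below heterozygous gonads (log2 fold change -1.33, SE 0.16, adjusted p = 0.00209) and above null gonads (log2 fold change 3.38, SE 0.22, adjusted p = 9.30e-06). Both thus lay between the null and the heterozygous libraries, with no overlap on either side. Of all genes 4.67% lay below heterozygous and 6.09% above null gonads without overlap. On the supporting lineage scale *Rarres1* was not called below heterozygous gonads, at -1.24. *Sh3gl2* had 36.8, 42.0 and 37.3 CPM in R111G/- gonads, above null gonads (log2 fold change 2.62, SE 0.22, adjusted p = 1.00e-04) and within the heterozygous range (-0.11 ± 0.19). *Elovl2* had 264, 401 and 276 CPM in R111G/- gonads, above null gonads (log2 fold change 1.96, SE 0.30, adjusted p = 0.0168) and overlapping heterozygous gonads (0.88 ± 0.29). *Elovl2* was not called above null gonads once any 1 null library was left out. *Tox*, at 4.94, 4.41 and 6.20 CPM, and *Tbc1d30*, at 1.98, 2.26 and 1.42 CPM in R111G/- gonads, were called against neither group by edgeR after the filter on low counts. With no filter both were called against heterozygous gonads, *Tox* at -1.29 and *Tbc1d30* at -1.67.

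In R111G/+ gonads 0 of the 9 genes passed the threshold against heterozygous gonads in either direction with edgeR's quasi-likelihood test, where 0.0505% of all genes were called lower and 0.0821% higher. At an unadjusted p below 0.05 there were 3 lower and 3 higher among the 9, where 913 of all 15837 genes differed in either direction. DESeq2 called 2 of the 9 lower (*Islr2* and *Etd*) and 1 higher (*Tbc1d30*), and 39 lower and 40 higher among all genes. *Tbc1d30* had 32.0, 27.4 and 24.6 CPM in R111G/+ gonads, against 2.19, 11.4 and 4.88 CPM in heterozygous gonads (log2 fold change 2.18, SE 0.42, adjusted p = 0.0549). It was called without heterozygous replicate 2, at 2.98. *Etd* had 3.46, 1.60 and 5.14 CPM in R111G/+ gonads, below every heterozygous library (log2 fold change -1.64, SE 0.43, adjusted p = 0.243), and *Islr2* had 21.9, 36.8 and 20.6 CPM, also below (log2 fold change -1.03, SE 0.27, adjusted p = 0.221). The share of all genes that lay below every heterozygous library was 5.01%. *Elovl2* had 435, 420.0 and 309 CPM in R111G/+ gonads (log2 fold change 1.16, SE 0.29, adjusted p = 0.200), and without heterozygous replicate 1 it was called, at 1.63. Against null gonads 8 of the 9 genes were higher in R111G/+ gonads, where 0.903% of all genes were, with log2 fold changes from 1.02 for *Aard* to 5.48 for *Clec12b*. The exception in edgeR's test was *Tox*, with 26.8, 13.9 and 10.4 CPM in R111G/+ gonads (log2 fold change 1.64, SE 0.50, adjusted p = 0.105). It was called by DESeq2 (1.64), with no filter on low counts (1.65) and on the supporting lineage scale (1.93). *Aard* in turn was not called without null replicate 1, at 0.93.

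**Figure D2:**
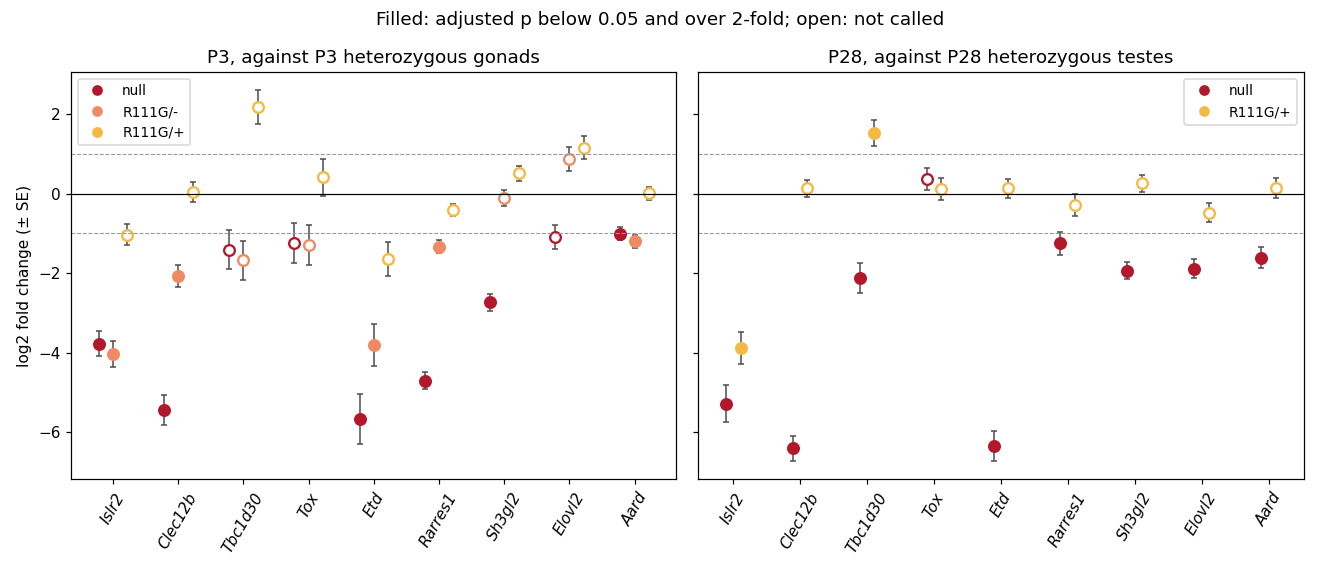
Log2 fold changes with SE of the 9 genes against heterozygous gonads at P3 (left panel: null, R111G/- and R111G/+) and against heterozygous testes at P28 (right panel: null and R111G/+), with filled points where the gene was called and dashed lines at 2-fold. *Islr2* falls in R111G/- at P3 and in R111G/+ at P28, while *Clec12b* and *Rarres1* at P3 are less reduced in R111G/- than in null gonads.

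At P28 the background was large: of 20952 genes tested, 38.7% were called lower in null gonads against heterozygous testes and 40.5% lower against wild-type testes. Of the 9 genes, 8 fell against heterozygous and 7 against wild-type testes, and both comparisons share the null libraries. The median of all genes was at -0.28 against heterozygous and -0.31 against wild-type testes on the log2 scale, and that of the 9 genes at -1.93 and -1.85. *Clec12b* had 0.232, 0.638 and 0.598 CPM in null gonads, against 36.9, 43.0 and 50.7 CPM in heterozygous and 33.2, 24.9 and 26.7 CPM in wild-type testes (-6.41 ± 0.32 against heterozygous). *Etd* had 0.116, 0.319 and 0.256 CPM in null gonads, against 17.7, 23.3 and 19.3 CPM in heterozygous and 14.6, 8.34 and 11.1 CPM in wild-type testes (-6.35 ± 0.38). *Islr2* had 0.579, 0.106 and 0.684 CPM in null gonads, against 17.2, 20.6 and 18.2 CPM in heterozygous and 12.2, 15.8 and 9.10 CPM in wild-type testes (-5.29 ± 0.46). Of the 9 genes these 3 had the largest falls, with adjusted p of 5.14e-09, 1.51e-08 and 3.20e-07 against heterozygous testes.

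*Tbc1d30* had 2.32, 1.49 and 1.28 CPM in P28 null gonads, against 10.0, 5.27 and 6.67 CPM in heterozygous testes (log2 fold change -2.12, SE 0.38, adjusted p = 2.08e-04). *Sh3gl2* had 14.7, 10.1 and 13.8 CPM in null gonads, against 43.3, 40.7 and 63.2 CPM in heterozygous testes (log2 fold change -1.93, SE 0.22, adjusted p = 3.71e-06). *Elovl2* had 106, 141 and 107 CPM in null gonads, against 555, 364 and 390.3 CPM in heterozygous testes (log2 fold change -1.88, SE 0.24, adjusted p = 9.23e-06). These genes kept more of their level in null gonads than *Clec12b*, *Etd* and *Islr2* did. Their groups did not overlap, and 45.4% of all genes were likewise lower without overlap. *Aard* had 76.2, 137 and 85.0 CPM in null gonads, against 243, 239 and 422 CPM in heterozygous and 189, 208 and 179.6 CPM in wild-type testes, and was called against the first (log2 fold change -1.61, SE 0.26, adjusted p = 8.00e-05) and not, for its size, against the second (log2 fold change -0.92, SE 0.25, adjusted p = 0.00435). Against wild-type testes *Aard* was called by DESeq2 and with its size factors in edgeR (-1.08 in both), without null replicate 2 (-1.21) and on the supporting lineage scale (-3.39). *Rarres1* had 5.44, 3.30 and 2.99 CPM in null gonads, against 8.51, 8.86 and 10.2 CPM in heterozygous and 11.1, 6.79 and 7.11 CPM in wild-type testes (log2 fold change -1.24, SE 0.29, adjusted p = 0.00158 against heterozygous). Against wild-type testes *Rarres1* was at -1.07, and it was not called without null replicate 2 or 3 or wild-type replicate 1, at -0.96, -0.93 and -0.79.

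*Tox* was the exception at P28, with 15.4, 20.7 and 19.2 CPM in null gonads, against 16.7, 13.2 and 12.9 CPM in heterozygous and 15.0, 14.3 and 15.4 CPM in wild-type testes (log2 fold change 0.37, SE 0.27, adjusted p = 0.222 against heterozygous). Its direction depends on the scale: set against 10 genes of the supporting cell lineage, such as *Wt1* and *Gata4*, of which 7 rose in null gonads, *Tox* was at -1.55 against heterozygous and -2.12 against wild-type testes, past the threshold in both. That scaling moves the median of all genes to -2.16 and -2.74 and calls 15679 and 16624 of all 20952 genes lower. *Tox* lies above both medians, and the other 8 genes stayed lower on this scale. At P28 markers of several cell types moved with genotype. Germ cell markers, with 12 of 14 lower, summed to 226 to 327 CPM in null gonads, against 3935 to 15569.5 CPM in heterozygous testes. Granulosa markers, with 14 of 16 higher, summed to 2786 to 3192 CPM in null gonads and 334 to 451 CPM in heterozygous testes, and Leydig markers, with 3 of 7 higher and 2 lower, to 10341 to 12285 CPM in null gonads and 1520.4 to 2683 CPM in heterozygous testes. All 6 endothelial markers were higher, with sums of 335 to 383 CPM in null gonads and 41.2 to 55.0 CPM in heterozygous testes, and 5 of 9 macrophage markers, with sums of 619 to 819 CPM in null gonads and 259 to 432 CPM in heterozygous testes. Of 28 Sertoli markers 7 were lower and 8 higher, and of all genes 38.7% were lower and 19.8% higher. The Sertoli markers summed to 7524 to 8290 CPM in null gonads and 2489 to 3655 CPM in heterozygous testes. The 10 supporting lineage genes summed to 6465 to 7348 CPM in null gonads and 997 to 1715 CPM in heterozygous testes. The part of these cell types in the values of the 9 genes was not tested.

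Heterozygous and wild-type testes at P28 differed in 0 of the 9 genes with edgeR's quasi-likelihood test, and the share of all genes called was 0% lower and 0% higher. At an unadjusted p below 0.05, 4 of the 9 were higher in heterozygous testes and 3769 of all genes differed, and DESeq2 called 4 genes lower and 19 higher in all and 0 of the 9. The log2 fold changes of the 9 genes in heterozygous over wild-type testes ran from -0.27 for *Elovl2* to 0.85 for *Etd*. Their median was 0.63, that of 28 Sertoli markers 0.70 and that of all genes -0.05.

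In P28 R111G/+ gonads, 1 of the 9 genes, *Islr2*, was lower and 1, *Tbc1d30*, higher than in heterozygous testes, where 28.1% of all genes were called lower and 6.72% higher, so that the share of the 9 that was lower was no larger than that of all genes. *Islr2* had 0.863, 0.912 and 1.93 CPM in R111G/+ gonads, against 17.2, 20.6 and 18.2 CPM in heterozygous testes (log2 fold change -3.88, SE 0.40, adjusted p = 2.53e-05). *Tbc1d30* had 13.4, 19.8 and 29.2 CPM in R111G/+ gonads, against 10.0, 5.27 and 6.67 CPM in heterozygous testes (log2 fold change 1.53, SE 0.33, adjusted p = 0.00222). The groups of both genes did not overlap, as for 36.9% of all genes on the lower and 20.5% on the higher side. On the supporting lineage scale *Tbc1d30* was not called, at 0.98. *Clec12b* had 37.9, 53.7 and 50.2 CPM and *Etd* 19.4, 25.8 and 20.2 CPM in R111G/+ gonads, overlapping heterozygous testes (0.14 ± 0.21 and 0.14 ± 0.24). Against wild-type testes, with the same R111G/+ libraries, these 2 genes were again called, *Islr2* at -3.25 ± 0.40 and *Tbc1d30* at 1.80 ± 0.34, where 34.1% of all genes were lower and 18.1% higher. In that comparison *Clec12b*, *Sh3gl2*, *Etd* and *Aard* lay between 0.79 and 0.99, short of 2-fold. Without R111G/+ replicate 1 these 4 were called too, which made 5 higher, where 4442 of all 21748 genes were. Without R111G/+ replicate 3 or wild-type replicate 1, *Etd* joined *Tbc1d30*. Sertoli markers rose against wild-type testes too, with 17 of 28 higher and 0 lower. Their median log2 fold change was 1.21, beside 0.79 over the 9 genes and -0.19 over all genes. The part of Sertoli cells in the values of the 9 genes was not tested.

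Against null gonads, 7 of the 9 genes were higher in P28 R111G/+ gonads, where 27.6% of all genes were. *Clec12b* and *Etd* differed most, at 6.54 ± 0.32 and 6.48 ± 0.37, followed by *Tbc1d30* at 3.65 ± 0.38, *Sh3gl2* at 2.20 ± 0.22, *Aard* at 1.76 ± 0.26 and *Elovl2* at 1.41 ± 0.23. *Islr2* was higher by 1.41 ± 0.52 at an adjusted p of 0.0357, from 9, 13 and 25 counts in R111G/+ and 5, 1 and 8 counts in null gonads. That call was lost without null replicate 1 (1.56) or 2 (0.96) or without R111G/+ replicate 3 (0.91). *Rarres1* had 7.86, 7.44 and 7.02 CPM in R111G/+ gonads, above every null library, as 35.6% of all genes were, and short of 2-fold (log2 fold change 0.95, SE 0.29, adjusted p = 0.0144). It was called without null replicate 1 (1.26) or 3 (1.01) or R111G/+ replicate 1 (1.14). DESeq2 (1.02), its size factors in edgeR (1.01), no filter on low counts (1.26) and the supporting lineage scale (2.31) called it too. R111G/+ gonads also had fewer germ cell transcripts, 1374 to 1527 CPM summed over 14 markers against 3935 to 15569.5 CPM in heterozygous testes, and more macrophage transcripts, 630.4 to 1495 CPM over 9 markers against 259 to 432 CPM in heterozygous testes, and their part in these values was not tested.

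Age moved the genes in different ways. In heterozygous gonads 2 of the 9 were lower at P28 than at P3 and 2 were higher, where 18.9% and 35.7% of all 21696 genes were. Taking both directions together, the share of the 9 that was called was no larger than that of all genes. *Islr2* averaged 18.7 ± 1.76 CPM at P28 and 53.7 ± 13.0 CPM at P3 (log2 fold change -1.52, SE 0.32, adjusted p = 1.44e-04), and *Rarres1* 9.20 ± 0.910 CPM at P28 and 22.6 ± 2.24 CPM at P3 (log2 fold change -1.29, SE 0.22, adjusted p = 1.32e-05). *Clec12b* averaged 43.5 ± 6.94 CPM at P28 and 15.7 ± 1.93 CPM at P3 (log2 fold change 1.47, SE 0.31, adjusted p = 1.55e-04), and *Elovl2* 436 ± 104 CPM at P28 and 172 ± 86.5 CPM at P3 (log2 fold change 1.34, SE 0.27, adjusted p = 9.94e-05), which was not called without P28 replicate 1 (0.97) or P3 replicate 2 (0.91). The falls of *Islr2* and *Rarres1* depended on the scale, since against the supporting lineage genes they were at 0.18 and 0.39 with no call. In null gonads, 1 gene was lower at P28 and 3 were higher, where 12.1% and 10.9% of all genes were. *Islr2* averaged 0.456 ± 0.308 CPM at P28 and 3.86 ± 1.86 CPM at P3 (-3.02 ± 0.51), while *Rarres1* averaged 3.91 ± 1.34 CPM at P28 and 0.842 ± 0.189 CPM at P3 (2.17 ± 0.31). *Tox* averaged 18.5 ± 2.75 CPM at P28 and 5.42 ± 2.35 CPM at P3 (1.77 ± 0.43), and *Sh3gl2* 12.9 ± 2.43 CPM at P28 and 6.32 ± 1.98 CPM at P3 (1.03 ± 0.24). *Sh3gl2* sat at the 2-fold limit and was not called without P28 null replicate 1 (0.94) or 3 (0.98) or P3 null replicate 3 (0.83).

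The null effect, the log2 fold change of null over heterozygous gonads, differed between P28 and P3 for 3 of the 9 genes, lower for 1 and higher for 2, where 23.1% and 17.8% of all genes were. With both directions together, the share of the 9 that differed was no larger than that of all genes. *Rarres1* was far less reduced later, at -1.24 ± 0.29 at P28 and -4.71 ± 0.22 at P3, a difference of effects of 3.47 (SE 0.38, adjusted p = 3.98e-08). It was past the threshold whichever library was left out. *Tox* was at 0.37 ± 0.27 at P28 and -1.23 ± 0.51 at P3, a difference of 1.61 (SE 0.59, adjusted p = 0.0247), which fell to 0.93 without P3 heterozygous replicate 1, short of the threshold, and was -0.28 under the supporting lineage scale. *Islr2* was at -5.29 ± 0.46 at P28 and -3.77 ± 0.32 at P3, a difference of -1.50 (SE 0.62, adjusted p = 0.0459). Leaving out any 1 of the 12 libraries except P3 null replicate 1 ended that call. For *Clec12b* and *Etd* the effects were large at both ages, and the differences of -0.96 ± 0.88 and -0.66 ± 1.06 were not past the threshold.

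**Figure D3:**
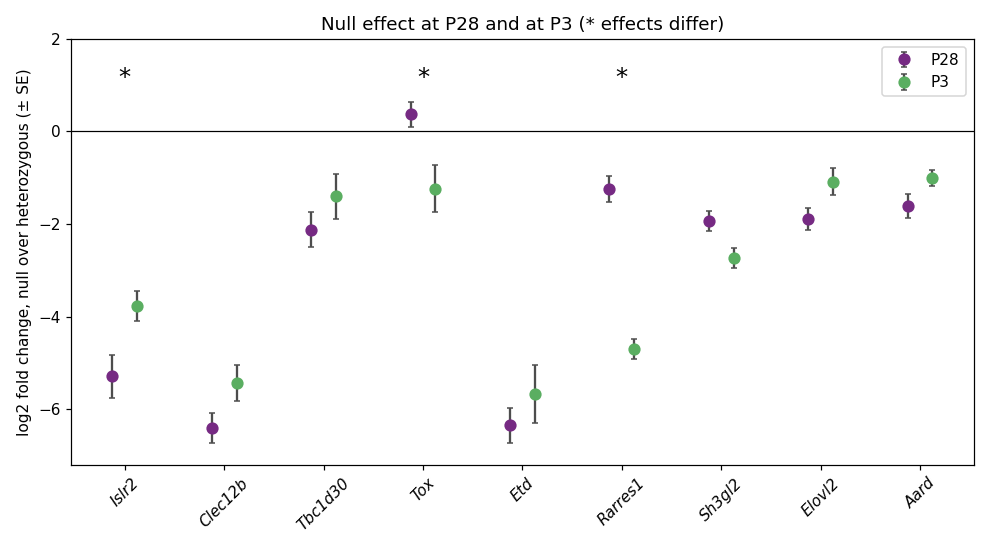
Log2 fold change with SE of null over heterozygous gonads for the 9 genes at P28 and at P3, with an asterisk where the effects differed by over 2-fold at an adjusted p below 0.05. *Rarres1* has the largest difference, with -1.24 at P28 and -4.71 at P3.

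The nearest tested coding genes on either side were read in the same P7 cells. Of 18 such neighbours, 2 were called lower, 1 higher and 15 were not called in P7 null cells, where 2% of all genes were lower and 2.56% higher. *Stra6*, the receptor that takes up retinol, lies 42301 bases from *Islr2* and had 0.656, 0.569 and 0.590 CPM in null cells, against 15.7, 7.98 and 34.3 CPM in control cells (log2 fold change -4.96, adjusted p = 0.00427). *4930502E18Rik*, 281250 bases from *Etd*, had 0.875, 1.14 and 0.983 CPM in null cells, against 4.54, 3.99 and 8.98 CPM in control cells (-2.55, adjusted p = 0.0176). *Wif1*, which encodes a secreted inhibitor of Wnt ligands, lies 163170 bases from *Tbc1d30* and moved the other way, with 52.5, 41.4 and 58.6 CPM in null cells, against 12.2, 11.6 and 4.14 CPM in control cells (2.44, adjusted p = 0.00801). None of the 3 was called in P3 null gonads, where *Stra6* was at -0.09, *4930502E18Rik* at -0.71 and *Wif1* at 1.15. In P28 null gonads *Stra6* and *4930502E18Rik* fell and *Wif1* rose against heterozygous testes, with log2 fold changes of -3.10, -3.24 and 2.03. *Islr2* overlaps *Islr* on the same strand and *Sh3gl2* overlaps *Adamtsl1*, so that reads in the shared parts can be uncertain. *Islr*, at 6.56, 33.4 and 11.8 CPM in P7 null cells and 1.75, 25.3 and 5.39 CPM in control cells, overlapped between the groups.

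Some related genes were called at P7 and P3. Of 50 relatives of the genes described (other elongases and desaturases, endophilins and dynamins, TOX proteins, Rab8 and cilium proteins, C-type lectins and their phosphatases, leucine-rich-repeat receptors and retinoid-linked genes), 37 were tested at P7, where 2 fell, against 2% of all genes. At P3, 46 were tested, where 1 fell and 1 rose, against 0.309% of all genes lower and 0.202% higher. *Sh3gl3*, endophilin A3, had 29.5, 25.2 and 19.9 CPM in P7 null cells, against 61.2, 38.5 and 55.3 CPM in control cells (-1.06, adjusted p = 0.0315). *Hacd2*, a dehydratase that works beside the elongases, had 22.9, 20.7 and 23.4 CPM in null cells, against 44.6, 45.6 and 48.1 CPM in control cells (-1.05, adjusted p = 0.00785). Both changes were just over 2-fold. At P3 *Ret*, the receptor for GDNF-family factors, fell in null gonads (-2.62, adjusted p = 0.0445) and *Crabp2*, a retinoic acid carrier, rose (2.16, adjusted p = 0.0369). At P28, 11 of 47 relatives fell and 22 rose in null gonads against heterozygous testes, where 38.7% of all genes were called lower and 19.8% higher. Among the elongation genes 10 of 14 rose at P28, led by *Elovl6*, which makes saturated and monounsaturated chains, with 1114, 798 and 825 CPM in null gonads, against 35.2, 58.0 and 51.5 CPM in heterozygous testes (4.24, adjusted p = 2.61e-08), so that *Elovl2* and *Elovl6* moved in opposite directions.

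As a description over the 30 libraries, which share groups and ages, the pairs with the highest Pearson correlation of log2 CPM among the 9 genes were *Clec12b* and *Etd* (0.943), *Rarres1* and *Sh3gl2* (0.909) and *Clec12b* and *Sh3gl2* (0.901). The lowest was 0.04, of *Tox* and *Aard*. The libraries include the P7 ones from which the 9 genes were chosen for a shared fall, so these correlations partly repeat that choice. Among 15098 coding genes with a mean of at least 1 CPM, the most alike were *Etd* and *Gm14569* for *Clec12b* (0.943 each), *Clec12b* and *Gm14569* for *Etd* (0.943 and 0.924), *Rab20* and *Gpr37* for *Aard* (0.935 and 0.918), *Ocln* and *4930550L24Rik* for *Tbc1d30* (0.909 and 0.846), *Sh3gl2* and *Cycs* for *Rarres1* (0.909 and 0.845), and *Rarres1* and *Clec12b* for *Sh3gl2* (0.909 and 0.901). *Slc13a2* and *Pdzd2* were the most alike for *Islr2* (0.879 and 0.875), *Plekhg1* and *Enpp2* for *Tox* (0.874 and 0.873), and *4933402E13Rik* and *Syne3* for *Elovl2* (0.87 and 0.847). *Ocln* encodes occludin, a tight junction protein of Sertoli cells, and is itself among the Sertoli markers that fell at P7 and P3.

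Hi-C, which counts contacts between distant DNA, was done in P7 null Sertoli cells, and the 4291 enriched interactions listed for them have 10 kb anchors and no score. An anchor lay in the gene or within 10 kb of it for 5 of the 9 genes, against 33.9% of the 12348 coding genes tested at P7, and the list holds no control cells to compare with. The anchor at *Islr2* (chr9:58200001-58210000) covers its start and was joined over 150 kb to one beside *Stra6* and *Ccdc33* (chr9:58050001-58060000). An anchor beside the 3′ end of *Tbc1d30* (chr10:121250001-121260000) was joined over 220 kb to one at the start of *Wif1* (chr10:121030001-121040000) and over 320 kb to one near *Lemd3*. The interactions with the *Stra6* and *Wif1* anchors thus pair *Islr2* and *Tbc1d30* with neighbours that were called at P7, 1 lower and 1 higher. The other interactions of the 9 genes reached no called neighbour, and a link between contacts and expression was not tested. *Elovl2* had interactions over 150 kb with the *Mak* region and over 390 kb with *Gcnt2*, *Clec12b* over 130 kb with *Olr1* and *Tmem52b*, and *Sh3gl2* over 230 kb and 400 kb.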

How the data were processed

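Polyadenylated, stranded RNA-seq of gonads and bead-enriched Sertoli cells was trimmed with Trim Galore 0.6.0 and cutadapt 1.18, aligned to GRCm38 with STAR 2.7.2a and counted per gene with Rsubread by the authors, and the deposited values are raw counts. The deposited Hi-C list gives only anchor positions. Libraries were grouped by their labels. edgeR 4.0.16 (R 4.3.3, limma 3.58.1; filterByExpr, TMM, quasi-likelihood F test, Benjamini-Hochberg adjustment over all genes tested) was fitted to 12 P28, 12 P3 and 6 P7 libraries, and to all 30 for ages. Genes were called at an adjusted p below 0.05 and over 2-fold. Standard errors were derived from the F statistic. FPKM used exon lengths of GENCODE M21.

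Alternatives were DESeq2 1.42.0, its size factors in edgeR, no filter, scaling to supporting lineage genes, fits of the compared groups alone, a replicate block and leaving out each library. The members and lists were chosen with earlier results of these data known. Named were the 9 genes, their nearest tested neighbours and 2 most alike genes each, up to 4 genes a list by adjusted p, any called relative, and *Dmrt1*. ChIP-seq of the study was not used here.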

Additional observations from a re-analysis of the deposited data

Results flagged for a closer look

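The effect of losing *Dmrt1*, as the log2 fold change of null over heterozygous gonads, differed between P28 and P3 for 3 of the 9 genes by the interaction term of edgeR's quasi-likelihood test over all 30 libraries, where 23.1% of all genes were lower and 17.8% higher. The share of the 9 that differed in either direction was thus no larger than that of all genes. *Rarres1* differed by 3.47 (adjusted p = 3.98e-08), being less reduced at P28, *Tox* by 1.61 (adjusted p = 0.0247), and *Islr2* by -1.50 (adjusted p = 0.0459), being more reduced at P28. The *Islr2* difference was not called in 11 of the 12 fits that left out 1 library, and that of *Tox* was 0.93 without P3 heterozygous replicate 1 and -0.28 on the supporting lineage scale.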

How the results depend on the processing

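Over 1537 values of single genes under an alternative setting, 1427 kept their side of the threshold, of which 57, called in neither fit, changed sign under one or another alternative, while 39 lost a call, 64 gained one and 7 turned direction with a call in at least 1 of the fits. Those 7 turned when libraries were scaled to the supporting lineage genes: in heterozygous gonads over age *Aard* was at 1.48, *Islr2* at 0.18 and *Rarres1* at 0.39, and *Tox* was at -1.55 in null against heterozygous, -2.12 in null against wild-type and 1.12 in R111G/+ against null gonads at P28, and at -0.28 for the difference of null effects. This scale moved the median of all genes to -2.16 in P28 null against heterozygous testes and 1.95 in heterozygous gonads over age. Under it 0 of the 9 genes were lower and 7 higher in heterozygous gonads over age, where 780 and 15508 of all 21696 genes were. For the difference of null effects 5 were lower and 1 higher, where 12099 and 385 of all genes were. In P28 R111G/+ gonads 2 were lower and 0 higher against heterozygous testes, where 7841 and 312 of all 20952 genes were. Against wild-type testes 3 were lower and 0 higher, where 11247 and 408 of all genes were. At P3 against heterozygous gonads, 3 were lower in R111G/- and 1 higher in R111G/+ gonads, where 21 and 30 of all 15837 genes were. With no filter on low counts, 9 were lower in P3 null and 7 in P3 R111G/- against heterozygous gonads, where 175 and 144 of all 32868 genes were. In P3 R111G/+ against heterozygous gonads 2 were lower and 2 higher, where 88 and 101 of all genes were. In P28 R111G/+ against wild-type testes 5 were higher, where 5528 of all 37880 genes were. The same setting called 8 neighbours and relatives at P7, against 5 with the filter. Of all 30703 genes it called 645 lower and 711 higher there. DESeq2 gave 2 lower and 1 higher in P3 R111G/+ gonads, where 39 and 40 of all genes were. A fit of the compared groups alone gave 5 higher in P28 R111G/+ against wild-type testes, where 4735 of all 19426 genes were.

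Leaving out 1 library gave between 1 and 2 higher in heterozygous gonads over age, 0 to 1 lower and 1 to 3 higher for the difference of null effects, 1 to 5 higher in P28 R111G/+ against wild-type testes, 0 to 1 higher in P3 R111G/+ against heterozygous gonads, and 3 to 11 called P7 neighbours and relatives, the last without control replicate 2. The causes were not tested. In the main fits replicate numbers were not used to pair the libraries. Correlations of same-numbered deviations ran from -0.394 to 0.355 at P28, -0.287 to 0.241 at P3 and -0.0371 to 0.505 at P7. With 3 libraries a group these values cannot show whether libraries were paired. With the replicate block 1 of the 9 genes was higher in null gonads over age, against 3 without it, and 2164 of all 21696 genes were. *Islr2* was then not called in P28 R111G/+ against null gonads, and *Tox* was called in P3 R111G/+ against null gonads.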
